A study of Bos taurus with 46 samples.

Results

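The interleukin-1 (IL-1) and interleukin-18 (IL-18) family was followed in blood leukocytes of pregnant heifers through 10 of the 30675 RefSeq genes of the count table. They were taken by symbol, and all 10 were in the table. The 3 ligands were *IL1A*, *IL1B* and *IL18*, the 4 receptor chains were *IL1R1*, *IL1RAP*, *IL18R1* and *IL18RAP*, and the 3 antagonists were *IL1RN*, *IL1R2* and *IL18BP*.

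Blood was drawn on day 55 (D55) and day 105 (D105) of gestation from the same 23 Angus crossbred heifers, so that there were 46 RNA sequencing libraries, 1 per heifer and day. Of these heifers, 8 carried fetuses conceived by artificial insemination (AI, the control), 6 carried fetuses of in vitro produced embryos of a weight below the AI-based limit for overgrowth (IVP-Normal), and 9 carried overgrown in vitro produced fetuses (IVP-LOS). LOS is large offspring syndrome, a congenital overgrowth of cattle, and fetuses were assigned by their weight on D105. The in vitro embryos came from taurine oocytes and semen of a single Brahman sire, were cultured with serum and were transferred to the heifers. Leukocytes were taken as the buffy coat of venous blood after lysis of red cells, a mixture of all white blood cell types. In such a mixture, fewer cells of a type and less RNA per cell cannot be told apart.

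The 46 libraries held 18692653 to 24502012 reads on genes (median 22934799.5). The submitters' descriptions place the D105 libraries of AI and IVP-LOS in a set called BACKUP (17 libraries) and the other 29 in a set called New. For AI and IVP-LOS the day and the set therefore cannot be told apart, whereas both days of IVP-Normal were within New. Season is not in the labels. A supplement of the study places the D55 blood in winter and the D105 blood in summer, its text names other seasons, and the part of season in the results was not tested. On D105, 3 libraries stood apart, all of them IVP-LOS and BACKUP. Heifers 604 and 664 had the largest shares of reads on no gene (32.4% and 30.4%, against a median of 22.9% over all libraries), and heifer 637 had the highest summed level of neutrophil markers. *PTPRC*, the common leukocyte antigen CD45, had 32782 to 56685 reads in every library. Red cell markers differed. *CA1* had 0 reads in every library and *SLC4A1* had 0 to 2, whereas *HBB* had 209 to 9820, *ALAS2* 27 to 1593 and *AHSP* 10 to 34. Their summed level on D105 was 591 CPM in heifer 604 and 136 CPM in heifer 664, against 11.2 to 153 CPM in the others. Of the 8 neutrophil and 8 monocyte markers in the table none was at 0 in any library.

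IL-1 and IL-18 are inflammatory cytokines that signal through closely related receptors. IL-1α and IL-1β bind IL1R1, which then recruits the accessory chain IL1RAP and signals through MYD88, IRAK kinases and TRAF6. IL-18 does the same through IL18R1 and IL18RAP, found mainly on natural killer and T cells, where it promotes interferon-γ production. Each arm has its brakes: IL1RN occupies IL1R1 without signalling, IL1R2 is a decoy that binds IL-1 without signalling, and IL18BP binds IL-18 in solution. IL-1β and IL-18 are made as precursors that caspase-1 cleaves within inflammasomes, so that RNA levels measure the supply of precursor message and not the active cytokine. In blood, monocytes and neutrophils are the main cells that express the IL-1 arm.

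Levels are read counts scaled to equal TMM-adjusted library size (CPM), which compare a gene between libraries but not genes with each other, since they are not divided by gene length. Differences were tested with edgeR's quasi-likelihood F-test and adjusted by the Benjamini-Hochberg method over all genes tested in a comparison (FDR). Unless heifer is named as a block, these fits had no term for heifer and so did not use the pairing of days. A gene is said to be called where its FDR did not exceed 0.05.

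The family was detected unequally. *IL18BP* had 0 reads in all 46 libraries, which allows up to 0.160 CPM in the smallest library and 0.00286 CPM over all libraries together (a limit of 3 reads, for counting error only). Whether the gene model used for counting could collect its reads is not known from the sources used here, so the 0 may not be a level. The genes next to *IL18BP* in the RefSeq table of assembly ARS-UCD2.0, *RNF121* and *NUMA1*, had 740 to 1139 and 11361 to 19933 reads per library. *IL1A* was close to the limit of detection, with 0 to 182 reads per library (median 6.5) and 3 reads or fewer in 13 libraries. The other 8 members had at least 25 reads in every library. Between the lowest and the highest of the 46 libraries, the level differed 125.2-fold for *IL1B*, 83.8-fold for *IL1RAP*, 40.4-fold for *IL1R2* and 36.6-fold for *IL18RAP*. The range was 13.9-fold to 18.9-fold for the remaining 4.

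The clearest pattern in the family was a higher level of *IL1B*, the secreted IL-1 ligand, on D105 than on D55. It was higher on D105 in 23 of 23 heifers. Of the 14861 genes tested on both days in all 3 treatment groups, 0.848% shared that behaviour. *IL18* was higher on D105 in 22 heifers, *IL1R1*, *IL1RAP*, *IL18RAP* and *IL1R2* in 20 each, *IL1RN* in 19 and *IL18R1* in 16.

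**Figure D1:**
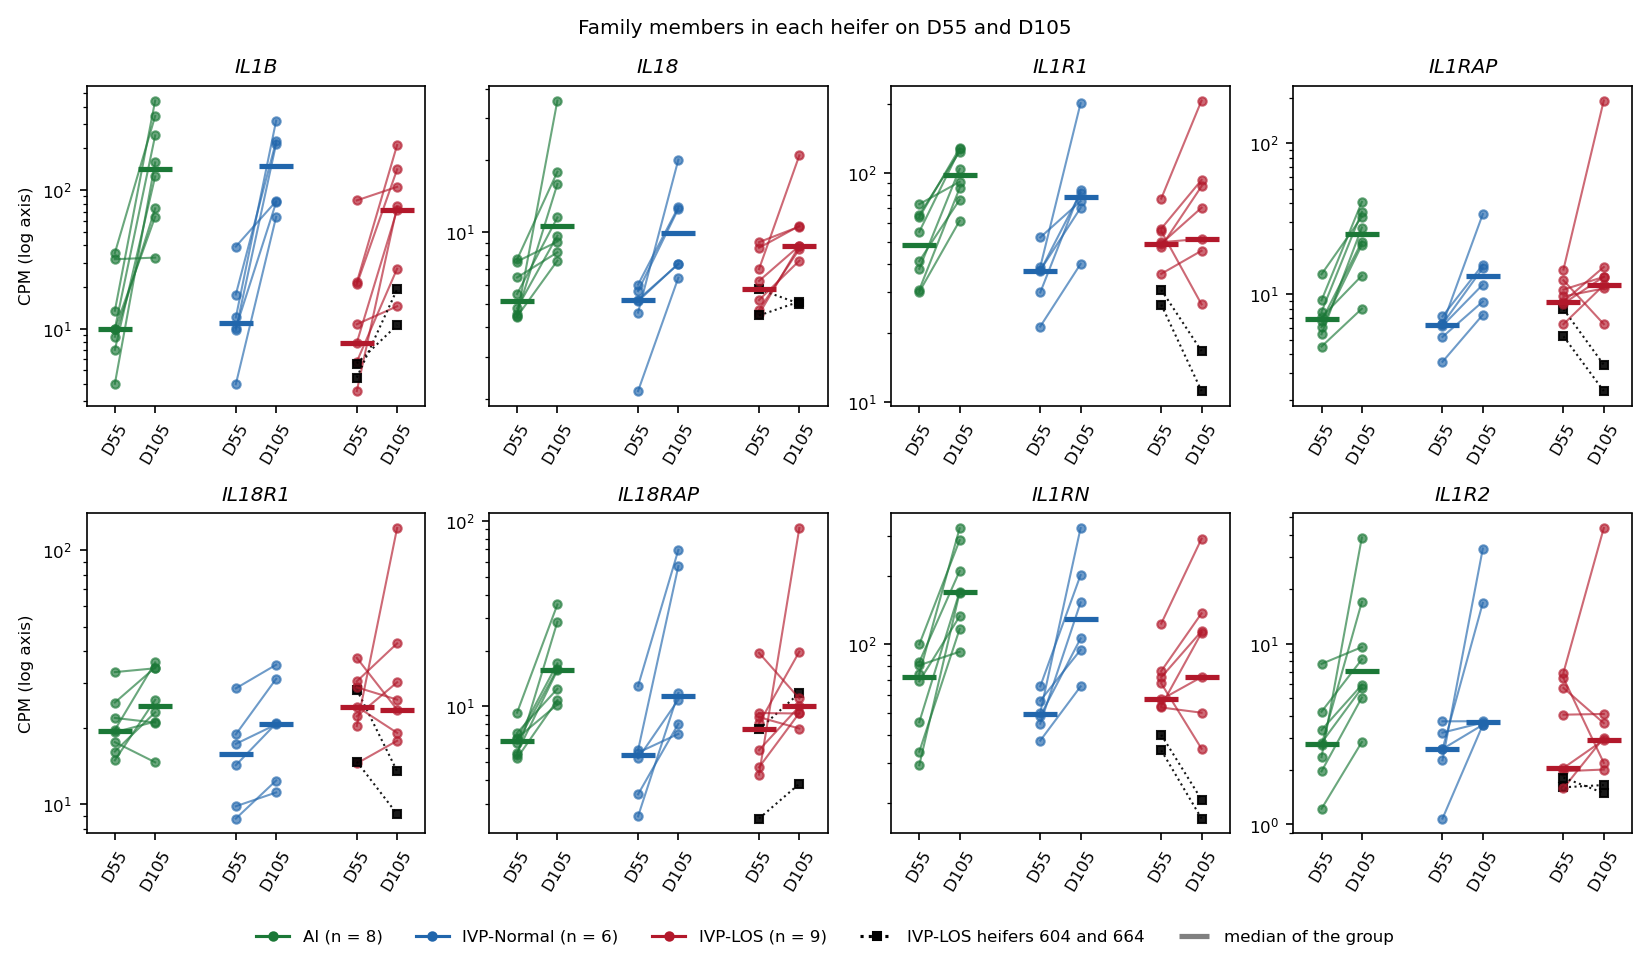
CPM (log axis) of 8 members on D55 and D105, with a line for each of the 23 heifers, a bar at the median of each group and squares with dotted lines for heifers 604 and 664. Every *IL1B* line goes up, whereas the lines of *IL1R1*, *IL1RAP* and *IL1RN* go up in all AI and IVP-Normal heifers and part in IVP-LOS heifers.

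In AI heifers, 7 of the 8 members tested were called and all 7 were higher on D105. Over all genes, 7.21% of 15248 were called higher in this comparison, 2.73% lower and 9.95% in either direction. The median log2 fold change was 1.51 over the 8 members and -0.023 over all genes. Each of the 7 was higher in all 8 heifers, a pattern that 6.96% of all genes showed. With all 46 libraries in a single fit, 7.24% of genes were called, and *IL18RAP* (edgeR FDR = 0.065), *IL1R1* (FDR = 0.080) and *IL1R2* (FDR = 0.069) lost their calls at nearly the same fold changes.

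Among the ligands, *IL1B* in AI heifers ranged from 3.998 to 35.1 CPM on D55 (median 9.96) and from 32.6 to 443 CPM on D105 (median 142). The ranges overlapped only through heifers 647 and 606: heifer 647 was at 31.7 and 32.6 CPM on the respective days and was nearly level, and heifer 606 was at 35.1 CPM already on D55. In the other heifers *IL1B* was 6.48 to 39.6 times its own D55 level. The fitted change was 12.5-fold (log2 3.64 ± 0.57 SE, FDR = 0.00047, n = 8 heifers a day, edgeR). *IL18* ranged from 4.42 to 7.68 CPM on D55 (median 5.16) and from 7.60 to 35.7 CPM on D105 (median 10.6). All 8 D105 libraries but that of heifer 517 lay above the highest D55 level, and the fitted change was 2.56-fold (log2 1.35 ± 0.29, edgeR FDR = 0.0053). *IL1A* did not pass the filter on low counts in this comparison. It had 2 to 12 reads per library on D55 and 5 to 182 on D105, and was higher on D105 in 6 of 8 heifers.

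Among the receptor chains, *IL18RAP*, the signalling partner of the IL-18 receptor, separated the days completely in AI heifers. It ranged from 5.27 to 9.26 CPM on D55 (median 6.52) and from 10.2 to 35.4 CPM on D105 (median 15.8), and 1.84% of all genes had every D105 library above every D55 library. The fitted change was 2.78-fold (log2 1.48 ± 0.24, edgeR FDR = 0.00058). *IL1RAP*, the partner chain of the IL-1 receptor, ranged from 4.51 to 13.6 CPM on D55 (median 6.85) and from 8.04 to 40.9 CPM on D105 (median 25.0), with a fitted change of 3.35-fold (log2 1.75 ± 0.30, edgeR FDR = 0.00083). *IL1R1*, the chain that binds IL-1, ranged from 30.2 to 72.9 CPM on D55 and from 61.7 to 127.7 CPM on D105. It was 2.01-fold higher (log2 1.005 ± 0.20, edgeR FDR = 0.0035). *IL18R1*, the chain that binds IL-18, was the exception. It ranged from 14.9 to 33.1 CPM on D55 and from 14.6 to 36.2 CPM on D105, and was not called (log2 0.33 ± 0.19, edgeR FDR = 0.32). The receptor partner of IL-18 was thus called and its ligand-binding chain was not, but the difference between these changes was not tested.

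Among the antagonists, *IL1RN*, the receptor antagonist, ranged in AI heifers from 29.5 to 100.1 CPM on D55 (median 71.6) and from 92.9 to 324 CPM on D105 (median 169.9). The fitted change was 2.92-fold (log2 1.55 ± 0.29, edgeR FDR = 0.0019). *IL1R2*, the decoy receptor, ranged from 1.22 to 7.73 CPM on D55 (median 2.79) and from 2.86 to 38.6 CPM on D105 (median 7.05), 3.52-fold higher in the fit (log2 1.82 ± 0.49, edgeR FDR = 0.024). Its highest D105 value came from heifer 590, at 38.6 CPM after 2.36 CPM on D55, and the next heifer was at 16.999 CPM.

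In IVP-Normal heifers, whose libraries were all in the set New, 4 of 8 members tested were called and all 4 were higher on D105. Over all genes, 2.27% of 15248 were called higher and 2.45% in either direction. All 8 members were higher in 6 of 6 heifers, which 7.5% of all genes were, and the median log2 fold change was 1.52 over the members and -0.033 over all genes. *IL1B* was at 3.97, 39.1, 17.6, 12.03, 9.79 and 10.1 CPM on D55 and at 64.2, 83.2, 226, 317, 216 and 81.6 CPM on D105 in heifers 519, 669, 688, 628, 560 and 633. No D105 library was as low as the highest D55 library, and the fitted change was 10.7-fold (log2 3.41 ± 0.55, edgeR FDR = 0.0065). The other called members were *IL1RN* (log2 1.63 ± 0.32, edgeR FDR = 0.015), *IL1RAP* (log2 1.40 ± 0.33, edgeR FDR = 0.040) and *IL1R1* (log2 1.34 ± 0.32, edgeR FDR = 0.044). With all 46 libraries in a single fit, where 3.98% of genes were called, *IL1RAP* (edgeR FDR = 0.23) and *IL1R1* (FDR = 0.052) lost their calls and *IL18* and *IL18RAP* gained them.

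*IL1RAP* and *IL18* also had no overlap between days in IVP-Normal heifers (3.58 to 7.15 against 7.32 to 34.0 CPM, and 2.16 to 6.03 against 6.45 to 20.2 CPM), which 1.82% of all genes showed. *IL18* was not called (log2 1.201 ± 0.31, edgeR FDR = 0.061). *IL18RAP* had a log2 fold change of 2.20 ± 0.63 and *IL1R2* of 2.05 ± 0.61, and neither was called (edgeR FDR = 0.10 and 0.12). Heifers 628 and 633 were far above the rest on D105 in both genes. *IL18RAP* was at 69.6 and 56.9 CPM in these heifers and at 7.11 to 11.8 CPM in the other 4, and *IL1R2* was at 16.8 and 33.5 CPM and at 3.55 to 3.72 CPM in the other 4. *IL18R1* was again the member with the smallest change (log2 0.42 ± 0.33, edgeR FDR = 0.63). With heifer as a block, so that each heifer was compared with herself, 7 members were called in IVP-Normal heifers in place of 4, with *IL18*, *IL18R1* and *IL18RAP* added, and the share of all genes called rose from 2.45% to 5.5%.

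In IVP-LOS heifers, no member was called by edgeR's quasi-likelihood test or by DESeq2, and 0.251% of 15163 genes were called in either direction, 0.198% higher and 0.0528% lower. Of the 8 members tested, 4 had an unadjusted p under 0.05 (12.6% of all genes did), and all 8 had a log2 fold change above 0. *IL1B* was nevertheless higher on D105 in 9 of 9 heifers, as were 1.66% of all genes. On D55 it ranged from 3.54 to 84.3 CPM (median 7.91) and on D105 from 10.6 to 212 CPM (median 72.1). Heifer 616 had the highest D55 level and rose only 1.25-fold, heifer 557 rose 1.35-fold, and heifer 656 rose 21.5-fold. The fitted change was 4.16-fold (log2 2.06 ± 0.69, edgeR FDR = 0.20), and with heifer as a block it was called (log2 2.20 ± 0.42, edgeR FDR = 0.033), as were 1.07% of all genes. Without heifers 604 and 664 the *IL1B* change was log2 2.07 ± 0.71 and without heifer 637 it was 1.72 ± 0.71, not called in either fit.

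For the receptor and antagonist genes of the IL-1 arm, IVP-LOS heifers went in different directions. *IL1R1* and *IL1RAP* were lower on D105 in 3 heifers each, the same heifers 557, 604 and 664 for both. *IL1R1* fell from 55.6 to 26.6 CPM in heifer 557, from 30.8 to 16.6 CPM in heifer 604 and from 26.6 to 11.1 CPM in heifer 664. *IL1RN* was lower in these 3 heifers and slightly in heifer 512, and higher in the other 5. *IL18R1* was lower in 5 of 9 heifers. Heifer 637 went the other way, with *IL1RAP* at 14.6 CPM on D55 and 192 CPM on D105 and *IL18RAP* at 4.30 and 91.3 CPM. The fitted *IL1RAP* change in IVP-LOS rested on her library: it was log2 1.68 ± 0.69 with heifer 637 and 0.13 ± 0.32 without her. Likewise *IL18RAP* was at log2 1.32 ± 0.54 with her and 0.34 ± 0.34 without her, and *IL1R2* and *IL18R1* turned to values below 0 without her.

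**Figure D2:**
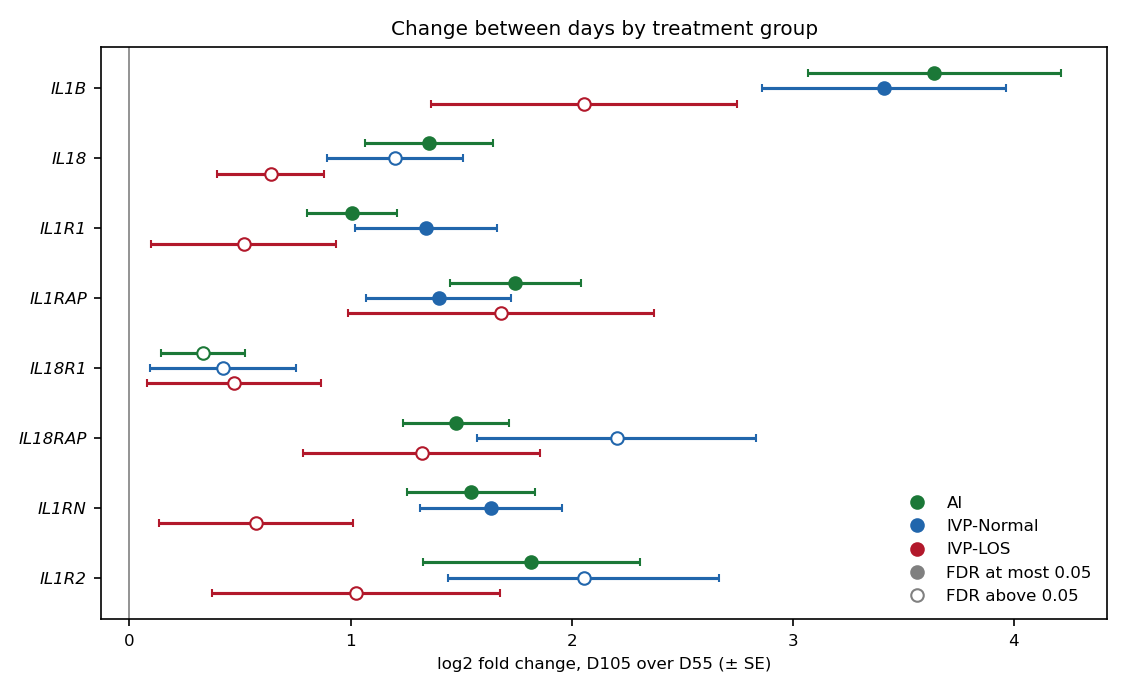
Log2 fold change of D105 over D55 (horizontal axis, ± SE) for 8 members in AI, IVP-Normal and IVP-LOS heifers, with filled points for called members. *IL1B* has the largest value in each group (3.64, 3.41 and 2.06) and *IL18R1* the smallest (0.33, 0.42 and 0.47).

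An interaction term tested whether the day change depended on the treatment group. In IVP-Normal against AI, IVP-LOS against AI, and IVP-LOS against IVP-Normal, no member was called by edgeR and neither was any other gene (0 of 16096, 16018 and 16181). DESeq2 called no member either, and at an unadjusted edgeR p under 0.05 no member passed, against 3.39%, 4.96% and 0.828% of all genes. The *IL1B* change in IVP-LOS was lower than that in AI by log2 1.58 ± 0.90 (SE), with an edgeR FDR of 0.91, and that of *IL1RN* by 0.97 ± 0.56, also with an FDR of 0.91. The day changes of IVP-LOS and AI were therefore not shown to differ.

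The balance between *IL1RN* and *IL1B* reads moved with the day. The ratio of their CPM within a library had a median of 5.87 on D55 and 1.01 on D105 in AI heifers, 4.31 and 1.02 in IVP-Normal heifers, and 6.27 and 1.38 in IVP-LOS heifers. It was lower on D105 in 7 of 8, 6 of 6 and 8 of 9 heifers. The ratio of *IL1R2* to *IL1R1* showed no such shift, with medians of 0.057 and 0.066 in AI, 0.071 and 0.068 in IVP-Normal, and 0.068 and 0.071 in IVP-LOS heifers, and was lower on D105 in 3 of 8, 3 of 6 and 4 of 9 heifers. These ratios are not corrected for gene length, so only their change between days can be read, and they were not tested.

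Comparisons of treatment groups on the same day addressed whether maternal leukocytes distinguish pregnancies by how the fetus was conceived and grew. No member was called in any of the 6 comparisons with edgeR, and neither was any other gene. DESeq2 called *IL1R2* in IVP-LOS against AI on D105 (log2 -2.01), where edgeR's value was -0.70 ± 0.71. The share of all genes that DESeq2 called there is not given here. Without heifer 637, the highest *IL1R2* library of IVP-LOS, edgeR's value was -2.12 ± 0.46 (FDR = 0.059). On D55, where all libraries were in New, the log2 differences of the 8 members lay between -0.47 (*IL1R1*) and 0.034 (*IL1B*) in IVP-Normal against AI, between -0.056 (*IL1R1*) and 0.33 (*IL1RAP*) in IVP-LOS against AI, and between 0.26 (*IL1B*) and 0.71 (*IL1RAP*) in IVP-LOS against IVP-Normal. In that order, 0, 0 and 2 of 8 members had an unadjusted p under 0.05, against 9.92%, 7.74% and 5.19% of all genes. The 2 were *IL1RAP* (log2 0.71 ± 0.22, edgeR FDR = 0.84) and *IL18R1* (0.61 ± 0.26, edgeR FDR = 0.84), both higher in IVP-LOS than in IVP-Normal heifers. *IL1RAP* ranged there from 5.28 to 14.6 CPM in IVP-LOS and from 3.58 to 7.15 CPM in IVP-Normal heifers.

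On D105, where AI and IVP-LOS were both in BACKUP, *IL1B* was at a median of 142 CPM in AI and 72.1 CPM in IVP-LOS heifers with overlapping ranges (32.6 to 443 and 10.6 to 212 CPM). The log2 difference was -1.30 ± 0.60 (edgeR FDR = 0.75). *IL1RN* was at a median of 169.9 and 71.9 CPM (log2 -0.99 ± 0.46, edgeR FDR = 0.75). Without heifers 604 and 664 the *IL1RN* difference was -0.69 ± 0.39, and without heifer 637 it was -1.41 ± 0.41 (edgeR FDR = 0.12). Of 9 members tested, these 2 had an unadjusted p under 0.05, as did 5.76% of all genes, and the other 7 lay between -1.05 (*IL1A*) and 0.36 (*IL18R1*). IVP-Normal against AI on D105 also compares New with BACKUP, and had 0 of 9 members with an unadjusted p under 0.05, against 9.57% of all genes, with log2 differences from -1.18 (*IL1A*) to 0.59 (*IL18RAP*). IVP-LOS against IVP-Normal on D105, with the same difference of sets, had 0 of 9 as well, against 3.24% of all genes, with log2 differences from -1.12 (*IL1B*) to 0.95 (*IL1RAP*). *IL1A*, which passed the filter on D105, ranged from 5 to 182 reads in AI, from 1 to 87 in IVP-Normal and from 0 to 135 in IVP-LOS heifers.

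In the order of the 6 groups by median, *IL1B*, *IL18*, *IL1R1*, *IL1RAP*, *IL18RAP*, *IL1RN*, *IL1R2* and *IL1A* all had the 3 D55 groups below the 3 D105 groups, and IVP-LOS was the lowest of the D105 groups for all 8. The top group was AI for all of them except *IL1B*, for which IVP-Normal (median 149.8 CPM) and AI (142 CPM) were close. Neighbouring groups overlapped in range for every gene. For *IL18R1* the order was different, and the D55 group of IVP-LOS (24.2 CPM) lay beside the D105 group of AI (24.4 CPM).

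The heifers with the largest LOS fetuses were singled out in the study and compared with all others, also because their libraries had separated from the rest in a clustering of these same data, so that differences on D105 are not independent of their choice. They were heifers 604 and 664 of IVP-LOS. On D105, 3 of 9 members tested were called and all 3 were lower in the pair. In this comparison 9.48% of 16841 genes were called lower, 11.6% higher and 21.1% in either direction. Of the 9 members, 7 had an unadjusted p under 0.05, as did 37.4% of all genes. All 9 members had a log2 fold change below 0, with a median of -2.72 against -0.022 over all genes.

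*IL1R1* was at 16.6 CPM in heifer 604 and 11.1 CPM in heifer 664, and ranged from 26.6 to 206 CPM in the other 21 (median 83.8). The log2 difference was -2.72 ± 0.61 (edgeR FDR = 0.0049). *IL1RN* was at 17.2 and 20.8 CPM, against 34.8 to 325 CPM (median 133), with a log2 difference of -3.03 ± 0.74 (edgeR FDR = 0.0083). *IL1B* was at 10.6 and 19.2 CPM against 14.5 to 443 CPM (median 105.6), with a log2 difference of -3.31 ± 1.07 (edgeR FDR = 0.032). The lowest of the other heifers was 557 for all 3 genes, and for *IL1B* she lay between the members of the pair.

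For *IL18*, *IL1R1*, *IL1RAP*, *IL1RN* and *IL1R2*, both heifers lay below all 21 others on D105, as they did for 6.92% of genes. *IL1RAP* was at 3.42 and 2.29 CPM against 6.35 to 192 CPM (log2 -3.20 ± 1.21, edgeR FDR = 0.059). *IL18* was at 5.01 and 5.11 CPM against 6.45 to 35.7 CPM (log2 -1.27 ± 0.52, edgeR FDR = 0.077), and *IL1R2* was at 1.65 and 1.49 CPM against 2.01 to 43.6 CPM (log2 -2.72 ± 1.31, edgeR FDR = 0.13). The pair was less alike in *IL18RAP* and *IL1A*. For *IL18RAP* (log2 -1.51 ± 0.95, edgeR FDR = 0.25), heifer 604 was at 11.8 CPM, level with the median of the others, and heifer 664 at 3.83 CPM, the lowest of all. *IL1A* had 0 reads in heifer 604 and 15 reads in heifer 664 (edgeR FDR = 0.39). *IL18R1* was at 13.5 and 9.16 CPM against 11.1 to 122.05 CPM (log2 -1.39 ± 0.63, edgeR FDR = 0.11).

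On D55 no member was called in the same heifers. Of 9 members, 1 had an unadjusted p under 0.05 (4.72% of all genes did), and 3 of 16733 genes (0.0179%) were called in all, each of them higher. The log2 fold change was below 0 for 8 of the 9 members, with a median of -0.71 against -0.0056 over all genes. For *IL18RAP* heifer 664 was the lowest of all at 2.49 CPM, and heifer 604 was at 7.53 CPM, above the median of the others (5.82 CPM). *IL1R1* was at 30.8 and 26.6 CPM against 21.3 to 77.1 CPM, *IL1RN* at 34.2 and 40.1 CPM against 29.5 to 123.5 CPM, and *IL1B* at 5.60 and 4.43 CPM against 3.54 to 84.3 CPM. All 6 values were inside the range of the other heifers, in its lower part.

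The D105 calls depended on which libraries were compared. Against only the other 7 IVP-LOS heifers, *IL1R1*, *IL1RN* and *IL1B* lost their calls (edgeR FDR = 0.057, 0.062 and 0.097). Within the set BACKUP these 3 kept them. Without heifer 637 they kept them too, and *IL1RAP* and *IL18R1* gained calls. The share of all genes called in each fit is not given here, so these changes cannot be read as particular to the members. With heifer 604 or heifer 664 left out, a single heifer stood against the others, and only fitted values are given. The fitted values kept their direction in these fits, at log2 -2.47 to -3.03 for *IL1R1*, -2.63 to -3.18 for *IL1RN* and -2.65 to -3.81 for *IL1B*.

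**Figure D3:**
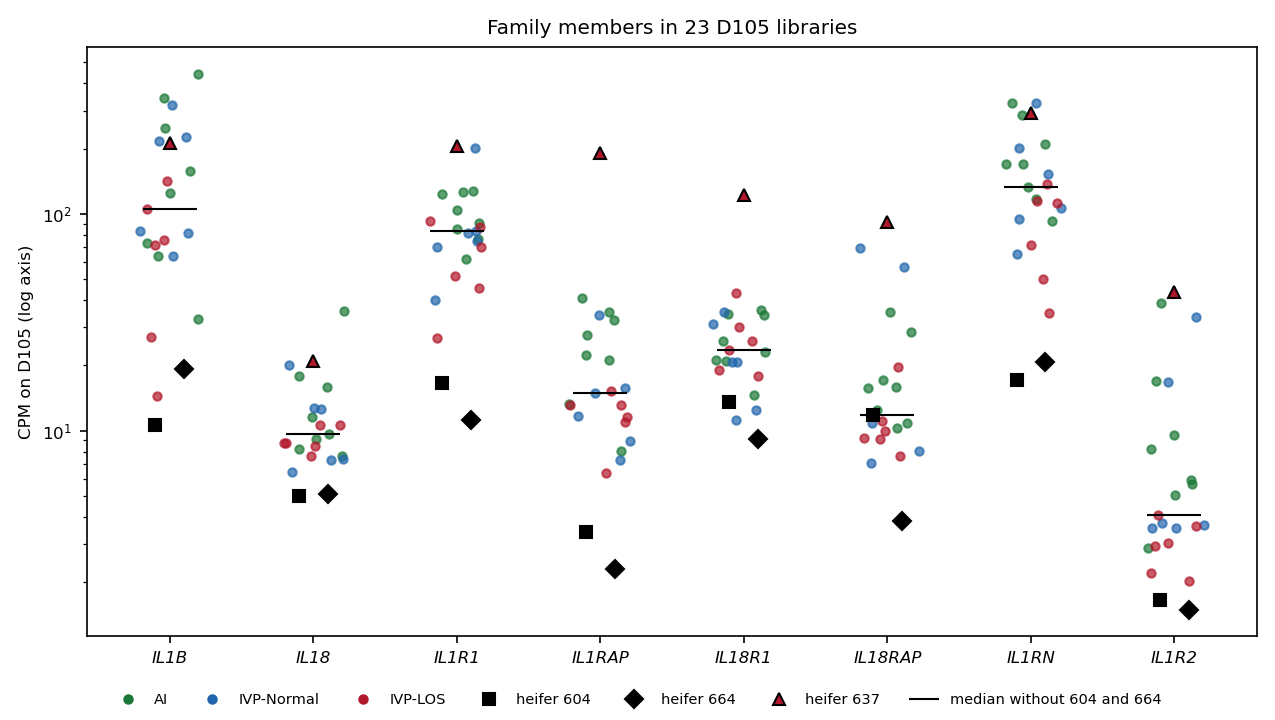
CPM on D105 (log axis) of 8 members in 23 libraries, coloured by treatment, with separate symbols for heifers 604, 664 and 637 and a bar at the median of the 21 heifers other than 604 and 664. The square and the diamond lie below all other points for *IL18*, *IL1R1*, *IL1RAP*, *IL1RN* and *IL1R2*, and the triangle of heifer 637 is the highest point for *IL1R1*, *IL1RAP*, *IL18R1*, *IL18RAP* and *IL1R2*.

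Neutrophil marker levels moved with the day in AI and IVP-Normal heifers, and both neutrophil and monocyte marker levels were lower in heifers 604 and 664 on D105. The neutrophil list had 8 of its 10 genes in the table (*CSF3R* and *FPR1* were not matched), and their summed level ranged in AI heifers from 263 to 593 CPM on D55 and from 714 to 2311 CPM on D105, without overlap. It ranged from 184 to 422 and from 529.9 to 2583 CPM in IVP-Normal heifers, and from 201 to 653 and from 125.8 to 6495 CPM in IVP-LOS heifers. In AI heifers 7 of the 8 markers were called higher on D105 and in IVP-Normal heifers 5, with *MMP9*, *CXCR2* and *CXCR1* first in both. Over all genes the shares called higher were 7.21% and 2.27%. In IVP-LOS heifers none of the 8 was called. Summed monocyte markers overlapped between days, at 1257 to 5352 and 1790 to 5196 CPM in AI heifers, 1260 to 2404 and 856 to 2985 CPM in IVP-Normal heifers, and 1311 to 6555 and 459 to 6675 CPM in IVP-LOS heifers. Of single markers of other lists, the monocyte genes *CD68* (log2 1.14 ± 0.26) and *CD14* (1.01 ± 0.31), the basophil genes *GATA2* (4.23 ± 0.44) and *MS4A2* (5.08 ± 0.57), the T cell gene *CD28* and the eosinophil gene *SIGLEC8* (1.82 ± 0.27) were called higher on D105 in AI heifers, and *SIGLEC8* (2.09 ± 0.37) in IVP-Normal heifers. On D105 the neutrophil sums of heifers 604 and 664 were 125.8 and 143 CPM and the monocyte sums 459 and 503 CPM, the lowest of all 23 heifers for both lists. There 6 of 8 neutrophil markers and 6 of 8 monocyte markers were called lower, while 3 of 6 B cell markers and 3 of 5 platelet markers were called higher. The part of these cells in the family's results was not tested.

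Heifer by heifer, *IL1RN* went in the direction of the neutrophil sum and *IL1B* did not always. The sum was higher on D105 in all 8 AI, all 6 IVP-Normal and 5 of 9 IVP-LOS heifers, 19 of 23 in all. The 4 exceptions were heifers 512, 557, 604 and 664, and *IL1B* was higher on D105 in each of them (5.76 to 27.1, 10.8 to 14.5, 5.60 to 10.6 and 4.43 to 19.2 CPM). *IL1RN* was lower on D105 in these 4 heifers and higher in the other 19, and *IL1R1* and *IL1RAP* were lower in 557, 604 and 664. Single neutrophil markers differed in this respect as well. *CXCR1*, *CXCR2* and *MMP9* were higher on D105 in 23 of 23 heifers, and *S100A8*, *S100A9*, *PGLYRP1*, *PADI4* and *MMP25* in 17 to 20. The sum adds CPM, so its direction rests mostly on the markers of highest CPM. Over all libraries *S100A9* had the highest median of these markers (189 CPM). The median was 42.7 CPM for *CXCR2*, 24.7 for *PADI4*, 11.7 for *CXCR1*, 1.13 for *MMP9* and 1.03 for *PGLYRP1*.

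**Figure D4:**
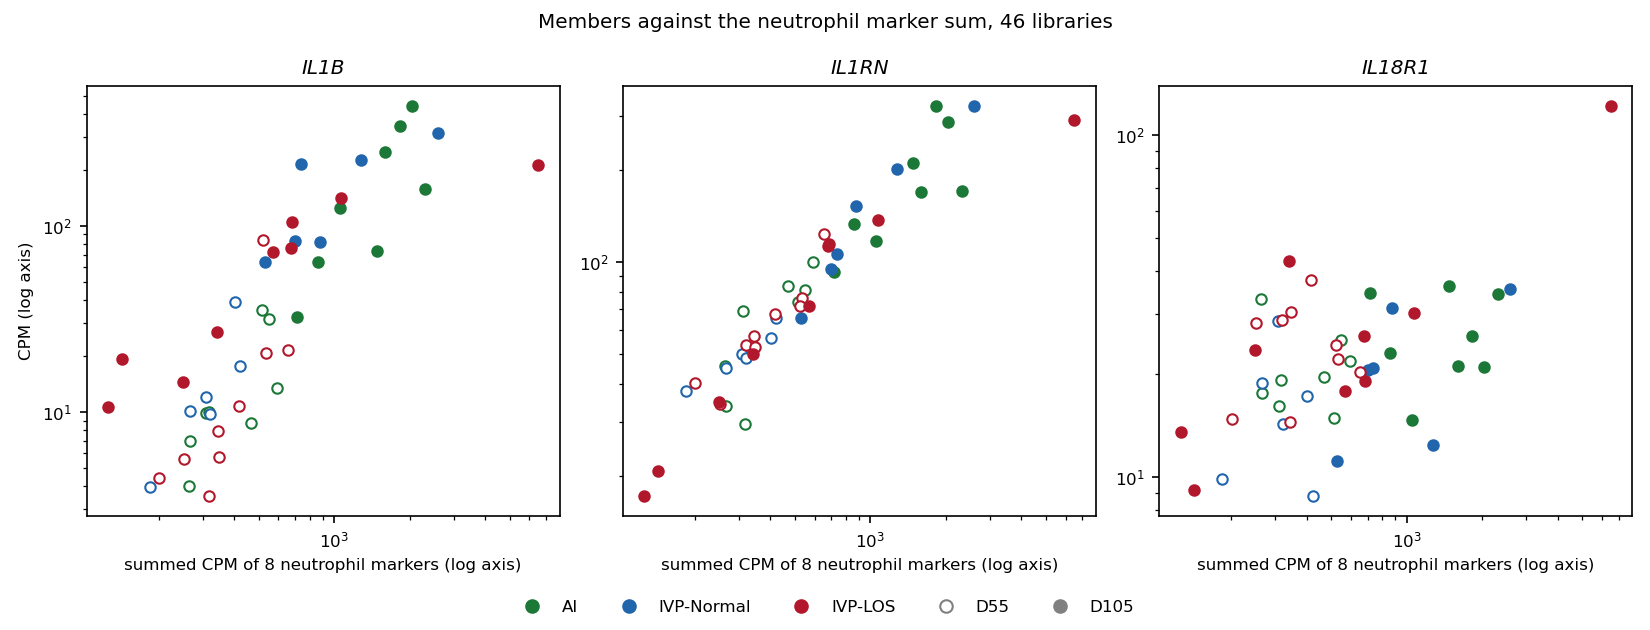
CPM of *IL1B*, *IL1RN* and *IL18R1* (log axes) against the summed CPM of 8 neutrophil markers in 46 libraries, open for D55 and filled for D105, coloured by treatment. *IL1RN* lies along a line (r = 0.95), *IL1B* also rises with the sum (r = 0.85), and *IL18R1* is scattered (r = 0.53).

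Across the 46 libraries, the log2 level (pseudocount 1) of *IL1RN* had a Pearson correlation of 0.95 with the log2 neutrophil sum, *IL1R1* of 0.92, *IL1RAP* of 0.91, *IL1B* of 0.85, *IL18* of 0.81, *IL1R2* of 0.76, *IL18RAP* of 0.70 and *IL18R1* of 0.53. With the monocyte sum the highest values were 0.71 for *IL1R1*, 0.64 for *IL1RN* and 0.60 for *IL1RAP*, and *IL1B* was at 0.23. Both sums add CPM, so the markers of highest CPM weigh most in them. In the monocyte sum, *LYZ* had a median of 1512 CPM over the 46 libraries, and the next marker, *CX3CR1*, of 273 CPM. The values for the sums therefore cannot be read as a contrast of cell types. *IL18R1* was the only member whose correlation with the natural killer marker sum (0.54) was above that with the neutrophil sum. *IL18RAP* was closer to the eosinophil sum (0.77, from 3 of 5 markers in the table) than to the neutrophil sum, and the eosinophil sum ranged from 29.8 to 53.4 CPM on D55 and from 43.0 to 136.2 CPM on D105 in AI heifers. These libraries share heifers, days and sets, so the coefficients are given as descriptions.

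Among the 13859 genes with a mean of at least 1 CPM, those most like *IL1B* over the 46 libraries were *CXCR2* (r = 0.97) and *CXCR1* (r = 0.97), the receptors for neutrophil-attracting chemokines, with *SLC16A12* (r = 0.97). The nearest to *IL1RN* were *LOC407171* (0.97), *PLBD2* (0.96) and *CCR1* (0.95), and the nearest to *IL1R1* were *LOC508666* (0.95), *UBTD1* (0.95) and *NLRP3* (0.95), the sensor of an inflammasome. *IL1RAP* was nearest to *ACVR1B* (0.94), *KREMEN1* (0.92) and *GK* (0.92). *IL18* was nearest to *FAS* (0.89), *IL18RAP* to *ICAM3* (0.89), *IL1R2* to *NCLN* (0.87) and *IL18R1* to *STXBP5* (0.82).

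Within the family, the 28 pairs of the 8 members had correlations from 0.24 to 0.93 (median 0.71). The closest pair was *IL1R1* with *IL1RN* (0.93), and the most distant was *IL1B* with *IL18R1* (0.24). *IL1R1* and *IL1RAP*, the chains of the IL-1 receptor, were at 0.84, and *IL18R1* and *IL18RAP*, those of the IL-18 receptor, at 0.74. In the RefSeq table the genes *IL1R2*, *IL1R1*, *IL1RL2*, *IL1RL1*, *IL18R1* and *IL18RAP* follow each other as neighbouring protein-coding genes. There *IL18R1* overlaps *IL1RL1*, which had 7 to 199 reads per library, and *IL1RAP* overlaps *GMNC*, which had 0 to 2, and *LOC112447424*, which had 0 to 93. *IL1R1* overlaps *LOC112448931*, which had 0 to 1, and *LOC132346540*, and *IL1A* overlaps *LOC132346579*. Counting in union mode leaves out reads that fall on more than 1 gene, and the part of these overlaps in the levels was not tested.

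In the comparisons of days in AI and IVP-Normal heifers, smaller shares of the other genes of the pathway were called than of the members. Over all genes, 7.21% were called higher on D105 in AI and 2.27% in IVP-Normal heifers, and the lists were not tested against these shares. Of 12 receptor signalling genes, 4 were called higher on D105 in AI heifers and none lower: *PELI1*, a ubiquitin ligase of the IRAK complex (log2 0.61 ± 0.096), *MYD88*, the shared adaptor (0.75 ± 0.15), *TAB2* (0.39 ± 0.096) and *TRAF6*. In IVP-Normal and IVP-LOS heifers none of the 12 was called. Of 8 cytokine maturation genes, 3 were called higher in AI heifers, *NLRP3* (1.10 ± 0.22), *CASP4* (0.71 ± 0.16) and *NEK7* (0.23 ± 0.061), and in IVP-Normal heifers *CASP4* (0.67 ± 0.14) and *NLRP3* (1.08 ± 0.26). *CASP1*, which encodes the enzyme that cleaves both precursors, was not called in any comparison between days.

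Of 9 response genes, 7 were tested and 3 were called higher on D105 in AI heifers: *CXCL8*, a neutrophil chemoattractant (log2 2.27 ± 0.32), *SOCS3*, an inhibitor of cytokine signalling (1.37 ± 0.26), and *PTGS2*, the inducible cyclooxygenase (1.92 ± 0.54). *SOCS3* was the only one called in IVP-Normal heifers (1.43 ± 0.31). Of the 10 other IL-1 family genes, such as *IL33* and the IL-36 ligands, 2 passed the filter in the comparisons of days and neither was called. In IVP-LOS heifers no gene of these 4 lists was called. In heifers 604 and 664 on D105, *PELI1* (-0.61 ± 0.14), *TAB2* (-0.72 ± 0.21), *TRAF6* (-0.29 ± 0.089), *TAB1*, *NLRP3* (-2.75 ± 0.59), *NEK7* (-0.40 ± 0.12) and *SOCS3* (-1.86 ± 0.65) were called lower. These were 4 of 12 receptor signalling, 2 of 8 cytokine maturation and 1 of 8 response genes tested, against 9.48% of all genes called lower. *SIGIRR*, an inhibitory receptor of the IL-1 receptor family, was called higher (0.64 ± 0.18), as were 11.6% of all genes.

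Whether heifers kept their rank from D55 to D105 was tested by the correlation of log2(CPM + 1) between days over the 23 heifers. Of 8 members, 1 was called, *IL1R1* (r = 0.53, Spearman's rho = 0.59, FDR = 0.026 and 0.016 from 100000 permutations over 13566 genes). Over all genes 39.1% were called, and the median r was 0.38 over the members and 0.39 over all genes. After subtraction of treatment means 3 of 8 members were called, as were 5418 of 13566 genes. These 3 were *IL1R1* (r = 0.68), *IL1RAP* (r = 0.63) and *IL1RN* (r = 0.61). The members were therefore not shown to differ from the background. *IL1R1* was not called without heifers 604 and 664 (r = 0.40, permutation FDR = 0.14), was at r = 0.44 without heifers 519 and 637, whose D55 levels were farthest from the median, and was at 0.66 within the 17 heifers of BACKUP (permutation FDR = 0.020). Within the 6 IVP-Normal heifers it was at 0.51. *IL1RN* (r = 0.46, rho = 0.38), *IL18R1* (r = 0.46, rho = 0.59) and *IL1RAP* (r = 0.45, rho = 0.33) had permutation FDRs of 0.064, 0.067 and 0.073 for r. *IL1B* was at r = 0.31 (rho = 0.43) and *IL18* at 0.18 (rho = 0.25), with permutation FDRs of 0.25 and 0.53 for r.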

How the data were processed

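Reads were quality-trimmed by the authors, placed on ARS-UCD1.2 by HISAT2 2.1.0, and assigned to RefSeq genes by HTSeq-count (union mode). The authors deposited raw counts, and whether counting used strand is not given in the sources used here. The second deposited table, with counts on Ensembl genes, was not used, because its identifiers could not be paired with symbols.

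Counts were analysed with edgeR 4.0.16 in R 4.3.3: TMM scaling, filterByExpr at a minimum count of 10, the quasi-likelihood F-test and Benjamini-Hochberg adjustment over all genes tested, with only the compared groups in each fit. The SE is the absolute log2 fold change divided by the square root of F. Reads on no gene, ambiguous reads and reads without a unique alignment (medians of 22.9%, 1.46% and 8.40%) stayed out of library sizes. Heifer correlations used 100000 permutations (smallest possible p 1e-05). Alternatives were DESeq2 1.42.0, edgeR's likelihood ratio test, upper-quartile scaling, no filter, all 46 libraries in a fit, heifer as a block and fits without single heifers.

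Labels give the same heifer number on both days, and deviations from group means correlated within heifers (mean r 0.54, lowest 0.29, 23 of 23 over 0.1), so the days are paired. Of the fits, only the alternative with heifer as a block used this pairing. On simulated counts with 200 genes changed 4-fold, the AI day fit recovered 95.5% of 200 with 6 false calls among 15248 genes and the D105 fit of heifers 604 and 664 recovered 80% with 12 among 16841. These counts were drawn independently for each library, with no heifer effect and no outlying library, so the rates need not hold for the data.

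The members, the pathway and marker lists and the tests were chosen with earlier results of these data known. Members are given singly or, in comparisons of groups on 1 day and of day changes, partly by their counts and range. For the other lists, counts are given with at most the 3 called genes of smallest FDR, except *TRAF6*, *TAB1*, *CASP1* and single cell markers, which were named after their values were seen.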

Additional observations from a re-analysis of the deposited data

Results flagged for a closer look

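The highest or lowest library of a group was compared with the next one for each detected member, treatment and day, and it stood far from the rest in 19 of 54 groups. The members share libraries and were correlated with each other, so the 19 are not independent and no number expected by chance is given. In 9 of the 19 it was heifer 637 (IVP-LOS). Her D105 library was the highest of its group for *IL1RAP* (191.8 CPM, next 15.2), *IL18R1* (122.05, next 42.9), *IL18RAP* (91.3, next 19.7), *IL1R1* (206.4, next 92.9), *IL1RN* (291.7, next 137), *IL1R2* (43.6, next 4.09), *IL18* (21.0, next 10.6) and *IL1A* (6.65, next 1.27, from 135 reads). Her D55 library was the highest for *IL1RN* (123.5, next 76.4). Her neutrophil marker sum was 6495 CPM on D105 and 653 CPM on D55, the highest on both days.

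Heifer 628 (IVP-Normal) was far above the rest on D105 for *IL1R1* (200.9, next 83.8) and *IL1RAP* (34.0, next 15.7), and on D55 for *IL18RAP* (12.9, next 5.81). The remaining 7 came from 7 heifers. They were *IL1B* on D55 in heifer 616 (84.3, next 21.6), *IL18RAP* on D55 in heifer 656 (19.4, next 9.22), *IL18* on D105 in heifer 609 (35.7, next 17.9), *IL1R2* on D55 in heifer 647 (7.73, next 4.203) and on D105 in heifer 590 (38.6, next 16.999), *IL1A* on D105 in heifer 669 (3.92, next 0.721, from 87 reads), and *IL18* on D55 in heifer 519, the only low value (2.16, next 4.601).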

How the results depend on the processing

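Counts of called members stayed within 1.5 times under 91 alternatives and did not under 13, which are among the following. In most comparisons no member was called in the main fit, so many of the 91 set 0 beside 0. A count within 1.5 times can also hide calls lost and gained. In the D105 against D55 comparison of IVP-Normal, 7 members in place of 4 were called by edgeR's likelihood ratio test, by DESeq2 and with heifer as a replicate block. With all 46 libraries in the fit it was 4 as well, with *IL1RAP* and *IL1R1* lost, and AI had 5 in place of 7, with *IL18RAP*, *IL1R1* and *IL1R2* lost and *IL1A* gained. In that of IVP-LOS, 1 in place of 0 (*IL1B*) was called with all 46 libraries in the fit and with the replicate block. The block changed no other count of called members by over 1.5 times. DESeq2 called 1 member (*IL1R2*) in IVP-LOS against AI on D105. For heifers 604 and 664 on D105, 5 in place of 3 were called with all 46 libraries and without heifer 637. Against the other 7 IVP-LOS heifers it was 0. Beyond the shares given in the results above, those of all genes called in these fits are not given. Calls gained or lost therefore cannot be read as particular to the members. The fits with either heifer left out are also among the 13. Only their fitted values are given, since the lone heifer was assumed to vary like the others. Of the heifer correlations, 2 were called with Spearman's rho and 3 after subtraction of treatment means, in place of 1. Over all genes it was 4489 and 5418 of 13566, in place of 5302.

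For single members, 788 of 852 alternatives agreed in direction and call, 14 lost a call, 20 gained one and 30 changed sign, and none of these 30 was called in either fit. Without heifer 637 the log2 values became -0.12 (*IL18R1*) and -0.24 (*IL1R2*) for the day change of IVP-LOS, -0.069 (*IL1R2*) for IVP-LOS against AI on D55, and -0.19 (*IL18R1*), -0.81 (*IL18RAP*) and -1.39 (*IL1RAP*) on D105. They became -1.198 (*IL1A*) and -0.71 (*IL1RAP*) for IVP-LOS against IVP-Normal on D105, -0.47 (*IL18R1*) for the day change of IVP-LOS against AI, and -0.56 (*IL18R1*) and -1.28 (*IL1RAP*) against IVP-Normal. DESeq2 gave -0.42 (*IL1R2*) for the day change of IVP-LOS, -0.78 (*IL18RAP*) and -1.28 (*IL1RAP*) for IVP-LOS against AI on D105, -1.18 (*IL1A*) and -0.66 (*IL1RAP*) against IVP-Normal on D105, and -1.41 (*IL1RAP*) for their day changes. Without heifers 604 and 664 the values were 0.097 (*IL1R1*) and 0.15 (*IL1RN*) for IVP-LOS against AI on D55 and 0.14 (*IL1RAP*) for their day changes. With the replicate block, day changes gave -0.024 (*IL1R2*) and -0.091 (*IL1RN*) for IVP-Normal against AI, -0.23 (*IL18R1*) for IVP-LOS against AI, and -0.34 (*IL18R1*) and -0.92 (*IL1RAP*) for IVP-LOS against IVP-Normal. For heifers 604 and 664 on D55, values with either heifer left out ranged from -0.35 to 0.037 for *IL18*, from -0.52 to 0.44 for *IL18R1*, from -1.51 to 0.11 for *IL18RAP* and from -0.59 to 0.030 for *IL1RAP*, and *IL18R1* was at -0.24 against the other 7 IVP-LOS heifers. Apart from the removal of single heifers, the cause was not tested.

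The Ensembl table was not run, since its identifiers could not be matched to symbols. At the depth used, *IL1A* was near the limit of 3 reads on D55 and did not pass the filter between days. With all 46 libraries, no filter or DESeq2 it was tested and called higher on D105 in AI heifers. Whether the 0 reads of *IL18BP* come from depth or from the gene model was not tested.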
